A study of Rattus norvegicus with 24 samples.

Results

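The genes described here are 10 markers of the endoplasmic reticulum (ER) stress response: Hspa5, Hsp90b1, Calr, Pdia4, Xbp1, Atf4, Ddit3, Herpud1, Creld2 and Sdf2l1. They were chosen by name from the 32883 reference genes listed for each rat, and all 10 were found, each under a single identifier. The RNA came from the frontal cortex of 24 adult male Sprague-Dawley rats, an outbred laboratory strain, taken 24 h after the animals inhaled an aerosol of tungsten particles. The 8 Control rats are labelled with an aerosol concentration of 0 mg/m3, the 8 Low rats with 5 mg/m3 and the 8 High rats with 80 mg/m3. Neither a genetic change nor a second agent is named for any group, and each rat gave 1 RNA-Seq library. Control libraries carry the numbers 49 to 56, Low libraries 57 to 64 and High libraries 65 to 72. The study is about detecting weak transcriptomic signals of exposure, and the comparisons below ask how far the ER stress genes of each exposed group lay from those of the other groups.

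The ER is the compartment in which secreted and membrane proteins are folded, and unfolded proteins that collect there switch on the unfolded protein response through the sensors PERK, IRE1 and ATF6. ATF6 and XBP1, whose mRNA is spliced by IRE1, raise the genes for ER chaperones and for ER-associated degradation, the route by which misfolded proteins are sent to the proteasome. PERK phosphorylates the translation factor eIF2alpha, which slows protein synthesis in general and favours translation of ATF4, the transcription factor of the integrated stress response, and ATF4 in turn raises DDIT3 (CHOP), which is linked to cell death. Much of this control acts on proteins or on splicing, while the tables give mRNA per gene and do not separate spliced from unspliced Xbp1.

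The promoters of 6 of the 10 members hold an ER stress response element of either type. They are shown as a description, and their relation to the variation across the rats given below was not tested. RefSeq promoter sequences on the GRCr8 assembly, from 250 bases before to 50 bases after the start of each gene, matched all 10 members. Only the first listed sequence of each gene symbol was searched, 27457 of 33469. Other starts of a gene, the members included, were therefore not searched. The ER stress response element (CCAAT, then 9 bases of any kind, then CCACG, searched on both strands like the motifs below) was found in 5 of the 10 members, against 21 of 27457 promoters in all, or 0.0765%. Its CCAAT and CCACG ends are in capitals in these matches, each read on the strand that holds the element.

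Hspa5, chr3:38452973-38452991: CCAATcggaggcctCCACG
Hsp90b1, chr7:23012451-23012469: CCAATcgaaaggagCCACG
Hsp90b1, chr7:23012347-23012365: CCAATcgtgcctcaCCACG
Calr, chr19:40213135-40213153: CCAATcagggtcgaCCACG
Xbp1, chr14:84604558-84604576: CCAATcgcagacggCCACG
Creld2, chr7:121789239-121789257: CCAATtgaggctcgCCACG
Herpud1, chr19:10614821-10614831: ATTGGgCCACG

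The last line is a different element, ER stress response element II (ATTGG, 1 base of any kind, CCACG), which was found in Herpud1 alone among the members and in 15 promoters in all, or 0.0546%. Herpud1 was also the only member with the core of the C/EBP-ATF element (TGATG, 1 base of any kind, AA, the kind of site that ATF4 dimers are known to bind), which 3.82% of all promoters hold. Neither ER stress response element was found in the windows of Pdia4, Atf4, Ddit3 and Sdf2l1. The short letters shared by these elements are common and set the members less apart: CCACG was in 10 of 10 members and 32.5% of promoters, and CCAAT in 9 of 10 members and 37.7% of promoters. The XBP1 site core TGACGTGG was in 0 members and in 0.637% of promoters. CCAAT and CCACG are the ends of the ER stress response element, so these counts overlap with its own, and a match is a description of letters and not of binding.

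The whole windows follow for Hspa5 (chr3:38452766-38453065, plus strand), Herpud1 (chr19:10614658-10614957, minus strand) and Atf4 (chr7:113684431-113684730, plus strand), the genes whose values are compared most closely below. Capitals mark the ER stress response element in Hspa5, and in Herpud1 first the C/EBP-ATF core, read on the opposite strand, and then ER stress response element II. The Atf4 window holds neither and has no capitals.

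Hspa5: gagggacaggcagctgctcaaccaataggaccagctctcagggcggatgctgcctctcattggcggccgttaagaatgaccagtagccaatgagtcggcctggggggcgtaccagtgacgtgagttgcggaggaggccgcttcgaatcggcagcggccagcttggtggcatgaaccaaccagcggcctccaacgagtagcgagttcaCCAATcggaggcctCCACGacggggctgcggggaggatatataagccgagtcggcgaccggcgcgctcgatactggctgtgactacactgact
Herpud1: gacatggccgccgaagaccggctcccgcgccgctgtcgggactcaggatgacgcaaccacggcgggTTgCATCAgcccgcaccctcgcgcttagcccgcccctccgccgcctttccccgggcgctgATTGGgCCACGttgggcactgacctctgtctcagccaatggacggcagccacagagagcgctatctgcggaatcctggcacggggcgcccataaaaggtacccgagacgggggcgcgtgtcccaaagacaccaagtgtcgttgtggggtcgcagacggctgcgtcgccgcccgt
Atf4: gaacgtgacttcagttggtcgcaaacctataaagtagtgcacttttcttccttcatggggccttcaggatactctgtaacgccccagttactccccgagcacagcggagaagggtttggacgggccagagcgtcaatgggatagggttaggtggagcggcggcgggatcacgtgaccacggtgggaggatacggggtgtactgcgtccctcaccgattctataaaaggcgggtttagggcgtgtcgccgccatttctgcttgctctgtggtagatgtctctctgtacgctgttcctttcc

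Levels are given as scaled coverage, the mean read depth per base of a gene divided by the sum over all reference genes of the rat and multiplied by 1000000, so that levels can be compared between genes per length. The sum itself, in units of 1000000, lay between 1.67 and 2.82 in Control, between 1.64 and 3.07 in Low and between 1.77 and 2.67 in High. Without read counts in the tables the counting error is unknown. Low tables list 0 loci assembled from the reads, against 46334 to 159573 in Control and 50235 to 64010 in High, so in every comparison with Low the dose and the kind of table cannot be told apart. Of the members 9 were also listed as an assembled locus on the same strand in each of the 16 Control and High tables, as was Calr in 7 of the 16. Libraries 56 to 62, which are 1 Control and 6 Low rats, had 0.545 to 0.810% of their reference coverage on minus-strand mitochondrial genes other than Nd6, against 0.0085 to 0.0155% in the other 17. Markers of cortical excitatory neurons were found in full (7 of 7), with summed levels between 2727 and 4305 in Control, between 2854 and 4475 in Low and between 1313 and 4357 in High. High libraries 65, 66 and 67 stood apart in tissue markers, with summed striatal markers of 1698, 1061 and 1243 against 222 to 507 in the other 5 High rats, 319 to 778 in Low and 455 to 1062 in Control, so library 66 lay within the Control range and libraries 65 and 67 above every other rat. These 2 sets of libraries were grouped from the data, and calls that change without them are given so beside each result.

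All 10 members were expressed in every rat, over a range from chaperones among the most abundant mRNAs of the tissue to genes near its middle. Calr had the highest mean of the 24 rats, 440 units of scaled coverage, above 98.6% of the 15644 genes tested. Hsp90b1 followed at 245, Hspa5 at 219.9, Atf4 at 145 and Xbp1 at 80.4. The lower members were Herpud1 at 39.6, Ddit3 at 35.2, Pdia4 at 32.0, Creld2 at 12.6 and Sdf2l1 at 10.5, the last above 39.9% of the genes tested. Neighbours in this order were compared by their Control means: Hsp90b1 and Hspa5, Herpud1 and Ddit3, Ddit3 and Pdia4, and Creld2 and Sdf2l1 lay closer than the sum of both SDs. Within rats the order was firmer, since Hsp90b1 exceeded Hspa5 in 22 of 24 rats and Creld2 exceeded Sdf2l1 in 22 of 24. Herpud1 exceeded Ddit3, and Ddit3 exceeded Pdia4, in 18 of 24 rats each. The other 5 neighbouring pairs differed by more than both SDs and kept their order in 24 of 24 rats.

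**Figure D1:**
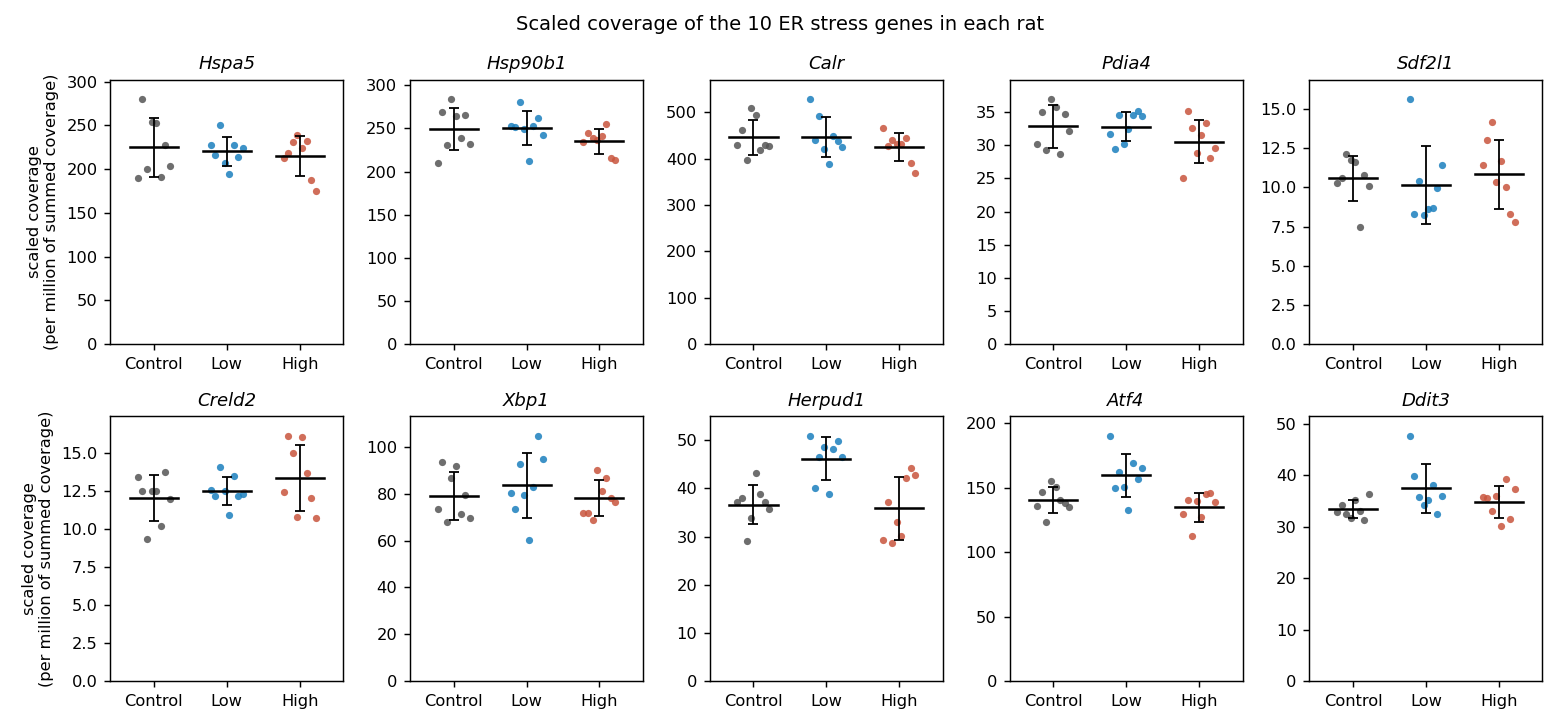
Scaled coverage of each of the 10 members (vertical axes, each starting at 0, per 1000000 of summed coverage) in each of the 24 rats, by group, with the mean and SD of 8 rats. Herpud1 had 6 of 8 Low rats above the highest Control rat at 43.2, and Atf4 had 5 of 8 Low rats above the highest Control rat at 155, while the Hspa5, Hsp90b1 and Calr points of the 3 groups lay over each other.

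The abundant ER chaperones did not pass the test in any comparison, and the intervals of their differences were narrow. Hspa5 (BiP, ENSRNOG00000018294, chromosome 3, 13838304 to 13842762), the Hsp70 chaperone that also holds the sensors inactive, ranged from 189 to 279.7 in Control with a median of 216, from 194 to 251 in Low with a median of 220.1, and from 175 to 239 in High with a median of 221. The 3 groups overlapped throughout, with means of 225 ± 33.8, 220.1 ± 16.7 and 215 ± 22.5 (SD, n = 8 each). On the log2 scale the Low to Control difference was -0.02 (95% CI -0.19 to 0.15) and the High to Control difference -0.06 (95% CI -0.23 to 0.11). Hsp90b1 (GRP94, the Hsp90 of the ER, ENSRNOG00000026963, chromosome 7, 27226569 to 27240533) had means of 249.2 ± 24.8, 250.4 ± 19.1 and 235 ± 13.9 in Control, Low and High (SD, n = 8). Its differences were close to 0 in Low (95% CI -0.12 to 0.14) and -0.08 in High (95% CI -0.21 to 0.05). A second gene, AABR07056495.1, overlaps Hsp90b1 on the same strand with a Control median of 197, a Low median of 182 and a High median of 181, so reads shared between the 2 genes cannot be assigned with certainty. Calr (calreticulin, a lectin chaperone and calcium store, ENSRNOG00000003029, chromosome 19, 25956771 to 25961666) ranged from 397 to 508 in Control, from 389 to 528 in Low and from 369.5 to 466 in High, and its intervals reached from -0.13 to 0.14 in Low and from -0.20 to 0.064 in High.

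The smaller folding factors likewise stayed under the threshold. Pdia4 (a protein disulfide isomerase, ENSRNOG00000006228, chromosome 4, 77470636 to 77489535) had a mean of 32.8 ± 3.18 in Control, a mean of 32.8 ± 2.18 in Low and a mean of 30.5 ± 3.26 in High (SD, n = 8), and its High to Control difference of -0.10 was the most negative among the members (95% CI -0.24 to 0.037). It too overlaps a same-strand gene, AABR07060522.1, with a Control median of 6.56, a Low median of 0.0727 and a High median of 6.20. Creld2 (an ER protein with isomerase activity, ENSRNOG00000004659, chromosome 7, 129812789 to 129819634) had means of 12.04 ± 1.52, 12.5 ± 0.93 and 13.4 ± 2.19 (SD, n = 8). Its High to Control difference of 0.14 was the most positive among the members, with an interval that includes 0 (95% CI -0.047 to 0.32). Sdf2l1 (a partner of BiP and its DnaJ cofactors, ENSRNOG00000001859, chromosome 11, 88122271 to 88124513) had the largest SD relative to its mean of the members in Low and in High, with levels from 7.45 to 12.1 in Control, from 8.20 to 15.6 in Low and from 7.78 to 14.2 in High. Its intervals were the widest of the 10, from -0.33 to 0.19 in Low and -0.24 to 0.28 in High against Control.

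Xbp1 (the transcription factor of the IRE1 branch, ENSRNOG00000010298, chromosome 14, 85753760 to 85758145) ranged from 68.1 to 93.5 in Control with a median of 76.5, from 60.5 to 105 in Low with a median of 81.6, and from 68.9 to 90.1 in High with a median of 77.6. The lowest and the highest of all 24 rats were Low rats, and the groups overlapped. Its difference was 0.07 in Low (95% CI -0.12 to 0.26) and -0.01 in High (95% CI -0.21 to 0.18), both against Control.

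Herpud1 was the member that stood out. It encodes HERP, an ER membrane protein that helps to assemble the degradation complex around SYVN1 (ENSRNOG00000018796, chromosome 19, 11046909 to 11057254). Its scaled coverage ranged from 29.1 to 43.2 in Control with a median of 37.2, from 38.8 to 50.9 in Low with a median of 47.4, and from 28.6 to 44.3 in High with a median of 35.0. All 8 Low rats lay above the Control median and 6 of them above the highest Control rat, and 6 of them also lay above the highest High rat, so Low was shifted up but still overlapped both groups. Means were 36.6 ± 4.07 in Control, 46.2 ± 4.41 in Low and 35.9 ± 6.53 in High (SD, n = 8). Herpud1 was higher in Low than in Control by 0.33 on the log2 scale (SE 0.094, 95% CI 0.13 to 0.52, 1.26-fold, limma with Benjamini-Hochberg adjustment over all genes tested, adjusted p = 0.0376). It was higher in Low than in High by 0.37 (SE 0.094, 95% CI 0.17 to 0.56, 1.29-fold, adjusted p = 0.0113). High and Control differed by -0.04 (95% CI -0.24 to 0.15, adjusted p = 0.999). In bulk tissue, fewer cells of a type and less RNA per cell cannot be told apart.

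The size of the Herpud1 difference held better than its call. Over all genes tested the median Low to Control difference was 0.06, and relative to that median Herpud1 was higher by 0.27 with scaled coverage, 0.26 with median-of-ratios scaling, 0.27 with the FPKM column and 0.25 with the TPM column. It was higher by 0.32 relative to the median without libraries 56 to 62, where 2 Low rats are left, and the adjusted p was then 0.502. With a term for these libraries the difference was 0.37 (adjusted p = 0.180), and with median-of-ratios scaling it was 0.27 (adjusted p = 0.101). Leaving out any 1 of Control rats 49, 50, 51, 52 or 55 or Low rats 57, 59, 60, 62 or 63 also took its adjusted p above 0.05, with differences of 0.28 to 0.34. Over the 37 alternatives the adjusted p ran from 9.58e-09 to 0.693 and the call was kept in 23. Against High, the difference was 0.27 without High libraries 65 to 67 (adjusted p = 0.108), which had 29.3, 37.2 and 28.6, and it was 0.42 with the term for libraries 56 to 62 (adjusted p = 0.133) and 0.43 without them (adjusted p = 0.304). It was 0.27 with median-of-ratios scaling and 0.16 with no scaling, both without the call. The median Low to High difference of all genes was 0.09 with scaled coverage, 0.0025 with median-of-ratios scaling and -0.12 with no scaling. The exact Wilcoxon rank-sum test also did not call Herpud1 against High. The call against High was kept in 31 of 37 alternatives (adjusted p up to 0.793). Of these 37, 24 each left out 1 rat, Control rats included, and all 24 kept it. The FPKM column also kept it, where 12410 genes were called.

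Atf4 (ENSRNOG00000017801, chromosome 7, 121480723 to 121482772) differed between the exposed groups and did not pass the test against Control. Its scaled coverage ranged from 123 to 155 in Control with a median of 139, from 133 to 190.2 in Low with a median of 159.6, and from 112 to 146 in High with a median of 139. Of the Low rats 7 lay above the highest High rat and 5 above the highest Control rat, so the Low group was shifted up with partial overlap. Means were 141 ± 10.1, 159.6 ± 16.8 and 135 ± 11.2 (SD, n = 8). Atf4 was higher in Low than in High by 0.24 on the log2 scale (SE 0.066, 95% CI 0.10 to 0.38, 1.18-fold, limma, adjusted p = 0.0185). The Low to Control difference was 0.18 (95% CI 0.041 to 0.31, adjusted p = 0.130), and the High to Control difference was -0.06 (95% CI -0.20 to 0.074). Atf4 was called higher in Low than in Control in 4 of 37 alternatives. These were mitochondrial genes left out (0.20), Low rat 61 left out (0.21), the TPM column (0.40) and the FPKM column (0.81). Without High libraries 65 to 67, whose Atf4 levels were 129.7, 140.2 and 112, the Low to High difference was 0.19 (adjusted p = 0.115). It was 0.27 with the term for libraries 56 to 62 (adjusted p = 0.198) and 0.26 without them (adjusted p = 0.305). With median-of-ratios scaling it was 0.14 (adjusted p = 0.248), and with no scaling it was 0.02, also without the call. The median Low to High difference of all genes moved too. That median was 0.09 with scaled coverage, 0.0025 with median-of-ratios scaling and -0.12 with no scaling. The Low to High difference of Atf4 passed the threshold in 32 of 37 alternatives, among them all 24 that each left out 1 rat.

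Ddit3, the CHOP gene downstream of ATF4 (ENSRNOG00000006789, chromosome 7, 70580198 to 70585084), ranged from 31.3 to 36.4 in Control with a median of 33.0, from 32.5 to 47.6 in Low with a median of 35.9, and from 30.1 to 39.4 in High with a median of 35.7. The Control rats were the most alike, with an SD of 1.74, against 4.71 in Low and 3.10 in High, and all 3 groups overlapped. Its Low to Control difference was 0.15 (SE 0.067, 95% CI 0.016 to 0.29, limma, adjusted p = 0.208), and its Low to High difference was 0.10 (adjusted p = 0.335). Mars1, with group medians of 59.2 (Control), 58.6 (Low) and 58.3 (High), overlaps Ddit3 on the opposite strand. The libraries were stranded, but Control library 56 had assembled loci on the opposite strand of all 10 members, against 1 to 3 members in the other 15 libraries with such loci, with a locus of 63.1 beside 132.6 in unscaled coverage at Xbp1. Low tables list no such loci, so the strand separation of libraries 57 to 62 was not tested at the members. Trib3 and Atf3, which lie in the same branch, were too low to be tested, with means of 0.369 and 0.851 in Control.

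Counted together, 1 of the 10 members (Herpud1) was called higher in Low than in Control, where 6.11% of all genes tested were called, 1.23% higher and 4.88% lower. Against High, 2 of 10 (Herpud1 and Atf4) were called higher in Low, where 11.7% of all genes were called, 5.3% higher and 6.39% lower. Between High and Control 0 of 10 were called by limma and 0 by the exact Wilcoxon rank-sum test, 0 of 10 had an unadjusted p under 0.05 by either test, and 0 had groups that did not overlap, as 0.00639% of all genes had. That comparison called 0% of all genes, with 330 of the 15644 (2.11%) at an unadjusted limma p under 0.05 and 887 by the Wilcoxon test. The median difference of the 10 members was 0.03 in Low against Control, beside 0.06 over all genes, and 0.09 in Low against High, beside 0.09. As a list the members therefore lay where the middle of all genes lay.

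**Figure D2:**
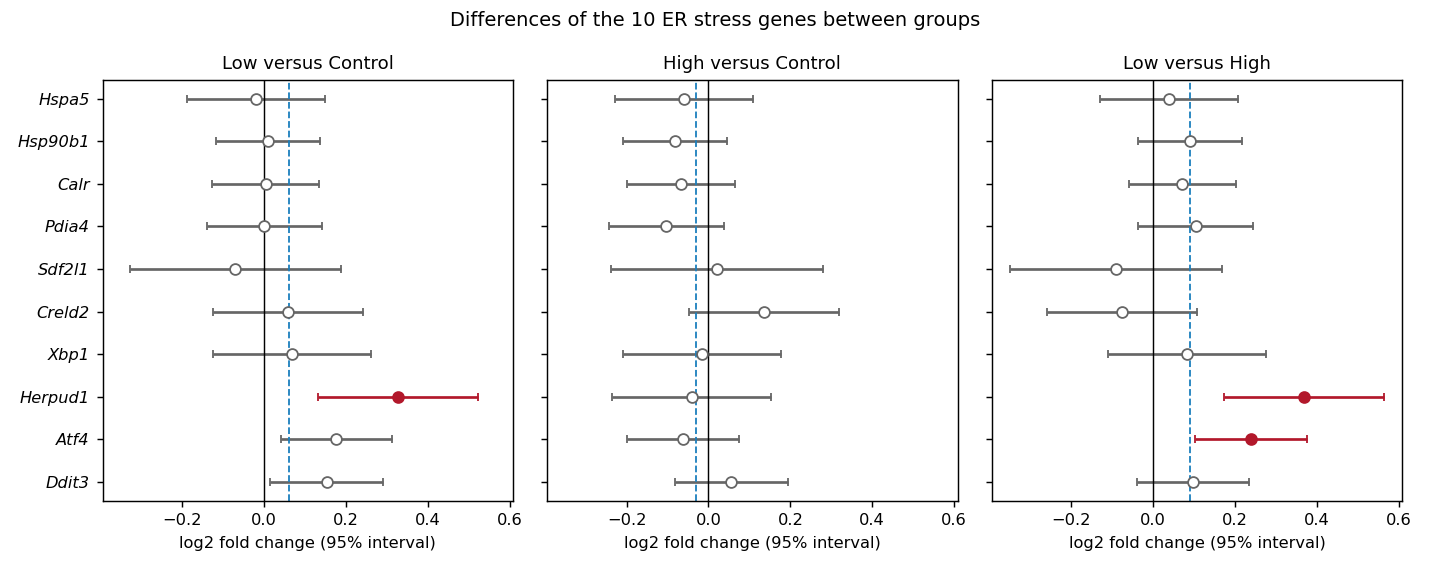
Difference of each member between groups in log2 units (horizontal axis) with its 95% confidence interval, for Low against Control, High against Control and Low against High, and the median of all genes tested as a dashed line. Filled points passed the threshold: Herpud1 at 0.33 and 0.37 in the comparisons with Low, and Atf4 at 0.24 against High.

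The rest of the pathway was read from 5 lists of 74 further genes found by name, 72 of which were tested. Of the 8 sensors and their activators 0 were called in any comparison: Eif2ak3 (PERK) was 0.21, Ern1 (IRE1) 0.21 and Atf6 0.41 above High in Low, with an adjusted p of 0.101 for Atf6. The 19 genes of folding in the ER lumen gave 0 calls, with medians of 0.06 in Low against Control and 0.11 in Low against High. Among them Hyou1, Pdia6 and Manf, chaperone genes that usually accompany Hspa5, were 0.06, 0.04 and 0.03 above Control in Low. Dnajb9, a BiP cofactor, was 0.19 above Control (adjusted p = 0.167) and Dnajc3, another, was 0.01 above it. The 15 genes of ER-associated degradation also gave 0 calls, and the partners of Herpud1 in that complex, Sel1l and Syvn1, were 0.15 and 0.08 above Control in Low. So neither the chaperones nor the degradation genes as lists had a called member apart from Herpud1 itself.

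Of the 12 genes of translocation and export, 1 was called higher and 1 lower in Low against Control (1.23% and 4.88% of all genes) and likewise against High (5.3% and 6.39%). Kdelr2, a receptor that returns escaped chaperones to the ER, ranged from 22.9 to 29.3 in Control, from 30.5 to 36.6 in Low and from 25.4 to 33.3 in High. Every Low rat lay above every Control rat, as in 1.53% of all genes tested in either direction. Kdelr2 was higher in Low than in Control by 0.30 (SE 0.059, limma, adjusted p = 0.00178) and higher in Low than in High by 0.23 (adjusted p = 0.0127). The call against Control was lost with the term for libraries 56 to 62 (0.27, adjusted p = 0.0782), without these libraries (0.30, adjusted p = 0.298) and with no scaling (0.27, adjusted p = 0.793), and the call against High also with median-of-ratios scaling (0.13, adjusted p = 0.246). Ssr1, a subunit of the translocon-associated complex, was lower in Low by 0.84 against both groups with scaled coverage, yet higher by 0.79 than Control with the FPKM column and by 0.40 with the TPM column, so its direction depends on the unit. Its Control values ran from 10.8 in library 56, which is within the Low range of 9.29 to 13.7, to 26.3.

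The integrated stress response and ATF4 targets had the most calls, all in Low against High. There 5 of the 18 tested were higher and 0 lower, where 5.3% of all genes were called higher and 6.39% lower, with a median difference of 0.21 beside 0.09 over all genes. Ppp1r15a (GADD34) and Ppp1r15b (CReP), the subunits that lead eIF2alpha dephosphorylation, were higher by 0.35 and 0.33 (limma, adjusted p = 0.0418 and 0.00878). Eif2s1, which encodes eIF2alpha itself, was higher by 0.23 (adjusted p = 0.0389), Cebpg, a dimer partner of ATF4, by 0.24 (adjusted p = 0.0113) and Sesn2, a stress-induced regulator of growth signalling, by 0.23 (adjusted p = 0.0322). Cebpg ranged from 27.3 to 32.8 in Low and from 21.9 to 27.1 in High, without overlap, as in 2.26% of all genes tested. The amino acid gene Asns was 0.28 higher without passing the test (adjusted p = 0.0841), and Chac1, a glutathione-degrading enzyme, was 0.20 higher. Against Control 0 of the 18 were called in either exposed group, with medians of 0.10 in Low and -0.07 in High. Without High libraries 65 to 67, Ppp1r15a, Ppp1r15b and Cebpg kept their calls against High and Eif2s1, Sesn2 and Kdelr2 lost theirs. Over the 37 alternatives, most of which leave out 1 rat, the calls against High held in 34 for Ppp1r15b and Cebpg. They held in 24 for Sesn2, 23 for Eif2s1 and 21 for Ppp1r15a. The highest adjusted p was 0.839 for Ppp1r15b, 0.973 for Cebpg, 0.966 for Sesn2, 0.991 for Eif2s1 and 0.822 for Ppp1r15a. With a term for libraries 56 to 62, 0 of the 72 genes were called against High.

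**Figure D3:**
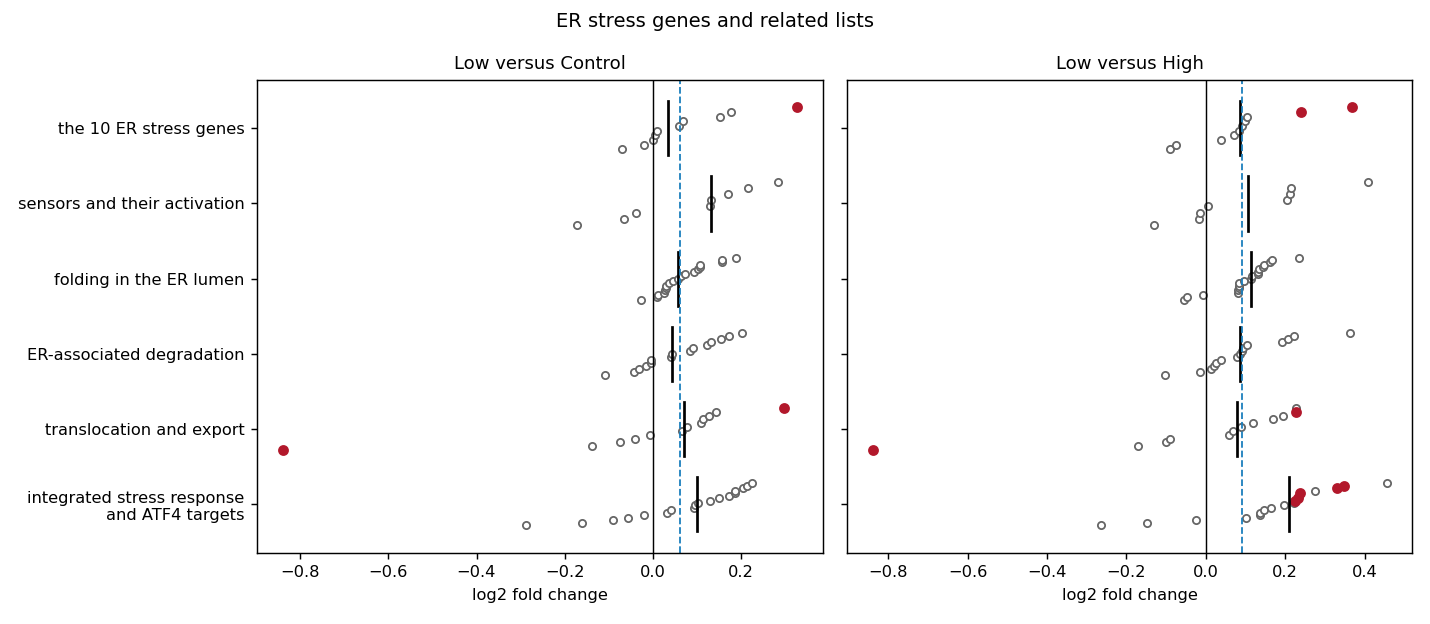
Difference in log2 units of each tested gene of the 10 members and the 5 pathway lists, 1 point per gene, for Low against Control and Low against High, with the list median as a short bar and the median of all genes tested as a dashed line. Filled points passed the threshold, and 5 of the 18 integrated stress response and ATF4 targets did so in Low against High, where the median of that list was 0.21 beside 0.09 over all genes.

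Immediate early genes, which neurons switch on within minutes of activity, moved with the same comparison. The summed level of 10 such genes ranged from 363 to 719.6 in Control with a median of 469.6, from 451 to 1081 in Low with a median of 826, and from 156 to 656 in High with a median of 329. In Low against High 9 of the 10 were called higher with a median difference of 1.10 (5.3% of all genes were called higher), in Low against Control 1 of 10 (Junb, by 0.71, limma, adjusted p = 0.0274), where 1.23% of all genes were called higher. In High against Control 0 of 10 were called, with all 10 lower and a median difference of -0.53. Across the 24 rats within groups, Herpud1 and the summed level had r = 0.484 (permutation test, two-sided, p = 0.0335, adjusted p = 0.167 over 10 members) and rho = 0.385 (adjusted p = 0.258). Without the 2 rats farthest from the median of the summed level the r was 0.275. In the 17 rats outside libraries 56 to 62 it was 0.625, and in Low libraries 57 to 62 it was -0.254. Among the 8 rats of each group it was 0.294 for Control, 0.0083 for Low and 0.750 for High. For Atf4 the r was 0.377 (permutation test, adjusted p = 0.213) with rho = 0.384, and 0.181 without the 2 farthest rats. It was 0.668 in the 17 rats outside libraries 56 to 62 and -0.212 in Low libraries 57 to 62, and by group 0.574 for Control, -0.135 for Low and 0.729 for High. The largest r in size was that of Sdf2l1 at -0.506 (rho -0.281, permutation test, adjusted p = 0.167 and 0.505), or -0.295 without the 2 farthest rats. None of the 10 members passed the threshold by r or by rho, and the part of these genes in the Herpud1 and Atf4 differences was not tested further.

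**Figure D4:**
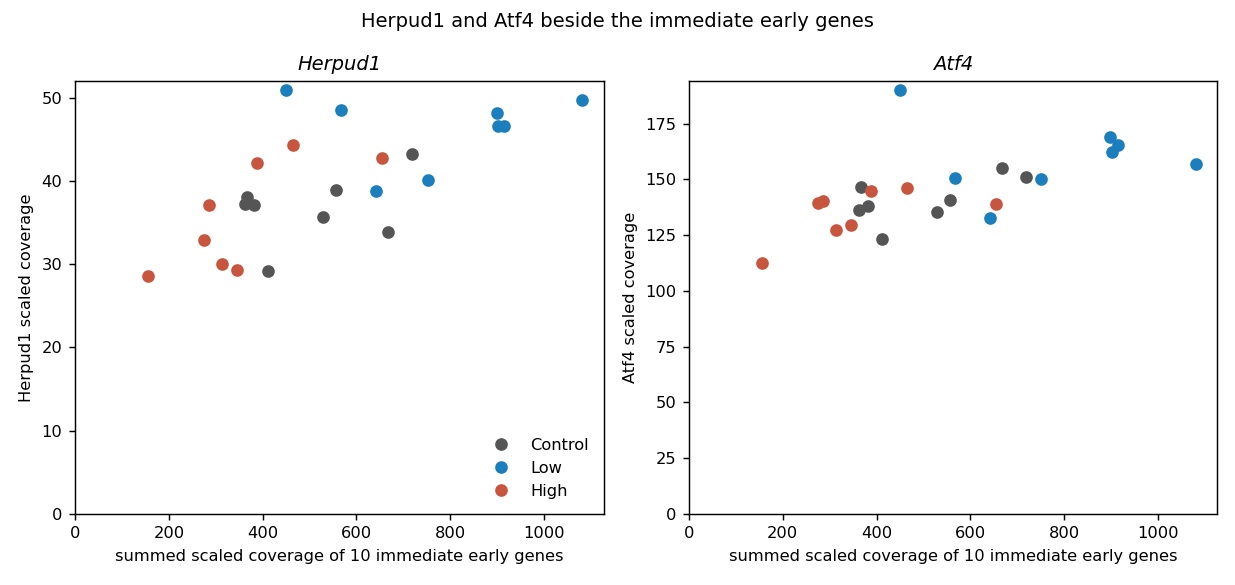
Scaled coverage of Herpud1 and Atf4 (vertical axes) against the summed scaled coverage of 10 immediate early genes (horizontal axis), 1 point per rat, by group. Low rats lie to the right and up, with sums of 451 to 1081 against 156 to 656 in High, and the relation within groups did not pass the test for either gene.

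The members also varied from rat to rat, and some pairs of them did so together. Pearson's r between members was computed over the 24 rats after the mean of each group was subtracted, for all 45 pairs, with 100000 permutations within groups and Benjamini-Hochberg adjustment over the 45. Of the 45 pairs 40 were positive, 17 passed the threshold by r, all of them positive, 15 passed by rho and 14 by both. The median r of the pairs was 0.38, beside 0.15 between members and all genes tested. The share of called pairs over all genes was not computed, so 17 of 45 has no background beside it. Among the called pairs, the share of other genes with a higher r ran from 0% (Hspa5 to Hsp90b1) to 27.3% (Hsp90b1 to Creld2). Some called pairs were therefore no closer than many pairs with other genes.

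The ER chaperones formed the tightest set. Hspa5 and Hsp90b1 had r = 0.844 and rho = 0.870 (permutation test, adjusted p = 0.0009 and 0.00045), and Hsp90b1 was the gene most like Hspa5 of all 15643 others. In the other direction Hspa5 had rank 18 for Hsp90b1. The r was 0.853 without the 2 rats farthest from the median of Hspa5. It was 0.872 among Control, 0.831 among Low and 0.878 among High rats. For each pair here and below, the 2 farthest rats were chosen by 1 gene alone, the member named earlier in the opening list. Hspa5 and Calr had r = 0.754 and rho = 0.853 (permutation test, adjusted p = 0.0009 and 0.00045, 0.759 without the 2 farthest). Calr had rank 12 for Hspa5 and rank 345 for Hsp90b1. Hsp90b1 and Calr had r = 0.723 and rho = 0.760 (permutation test, adjusted p = 0.0027 and 0.0015, 0.728 without the 2 farthest). These are 3 of the 5 members whose promoters hold the ER stress response element shown above, and how the rats' common variation relates to the element was not tested. Members without either element were in called pairs too, Pdia4 with Hspa5 (r = 0.590), Hsp90b1 (0.583) and Creld2 (0.612), and Sdf2l1 with Calr (0.626) and Hspa5 (0.508). Xbp1 and Creld2, which both hold the element, had r = 0.195 and were not called.

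Atf4 and Herpud1 had the highest r of the pairs outside these chaperones, with r = 0.717 and rho = 0.656 (permutation test, adjusted p = 0.0009 and 0.00891). Among the 15643 other genes Herpud1 had rank 504 for Atf4, and Atf4 had rank 78 for Herpud1. The r was 0.620 among Control, 0.770 among Low and 0.822 among High rats, and 0.619 without the 2 farthest rats. In contrast, Herpud1 had r = -0.073 with Hspa5, 0.093 with Hsp90b1 and 0.0093 with Calr (rho -0.120, 0.080 and -0.042, permutation test, adjusted p of r 0.804, 0.755 and 0.966). Within High alone these 3 values were negative, at -0.594, -0.376 and -0.703. Both genes were also called with Xbp1, Atf4 with r = 0.600 and rho = 0.608 (permutation test, adjusted p = 0.0232 and 0.0157) and Herpud1 with r = 0.458 and rho = 0.416 (permutation test, adjusted p = 0.0470 and 0.0934). Atf4 was called with Calr by r, at 0.509 (rho 0.453, permutation test, adjusted p = 0.0470 and 0.0796, 0.288 without the 2 farthest rats). Ddit3 was in 0 of the 17 called pairs with scaled coverage, where its r with Atf4 was 0.472 (rho 0.325, permutation test, adjusted p = 0.0961 and 0.221). That pair passed with median-of-ratios scaling (r = 0.678, permutation test, adjusted p = 0.0127) and with the FPKM column (r = 0.535, adjusted p = 0.0371), and Calr with Ddit3 passed with median-of-ratios scaling (r = 0.615, adjusted p = 0.0279).

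How many pairs passed depended on the scaling, while the leading pairs passed with each scaling but with r values that moved. With mitochondrial genes left out of the sum, which make up 21.8 to 33.8% of the coverage of a rat, 5 pairs passed, and without libraries 56 to 62 also 5. Without High libraries 65 to 67 it was 15, with the FPKM column 12 and with no scaling 44. The 3 chaperone pairs and the pair of Atf4 and Herpud1 were called in each of the 7 alternatives that left out libraries as a set or changed the scaling, unit or pseudocount. The r of Atf4 and Herpud1 ran from 0.558 with the FPKM column to 0.927 with no scaling, and was 0.608 without mitochondrial genes. The members' mean had r = -0.70 with the mitochondrial share of coverage, and single members from -0.71 (Xbp1) to 0.02 (Ddit3). Beyond leaving those genes out, the part of that share in the pairs was not tested.

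**Figure D5:**
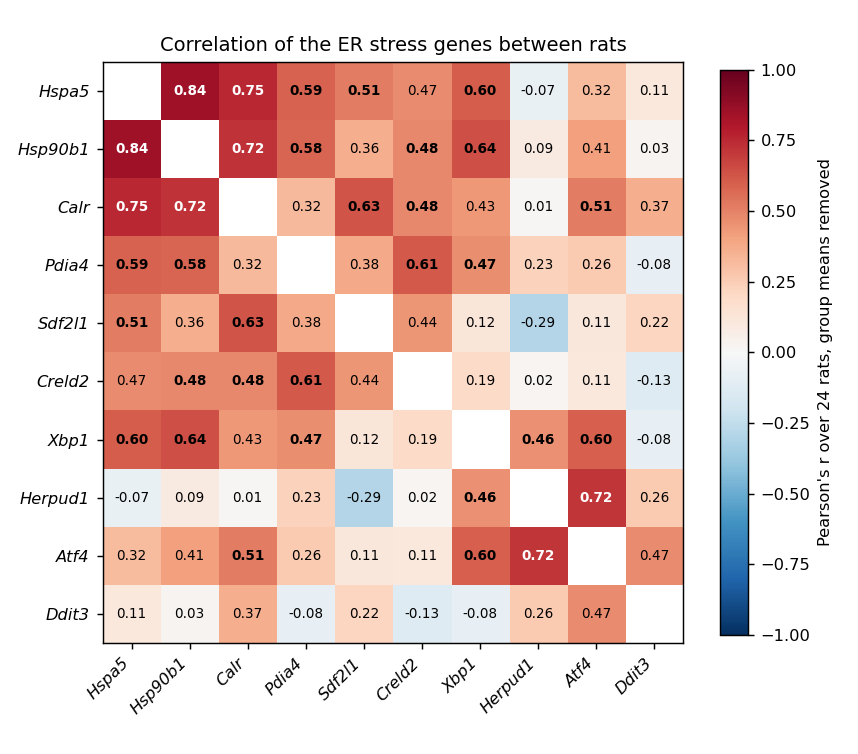
Pearson's r between each pair of the 10 members over 24 rats after subtracting group means (colour scale from -1 to 1), with r printed in each cell, in bold where the pair passed the adjusted threshold. Hspa5, Hsp90b1 and Calr form a block of 0.72 to 0.84, and Atf4 and Herpud1 share 0.72 while Herpud1 lies near 0 with those 3.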

How the data were processed

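RNA-Seq of rat frontal cortex, 1 library per rat, was analysed in 24 rats, 8 in each group, with groups taken from the concentration labels. Stranded libraries of poly(A) RNA were sequenced for the authors at Genewiz Azenta Life Sciences. Per the labels, the processing notes name FastQC, Trimmomatic, TopHat2 and StringTie, without versions, and the build mRatBN7.2. The gene names of the tables include AABR07 clone names, which may belong to an earlier build, so gene positions are given as the tables give them. The extraction label speaks of cell lines, while the tissue label and the study name frontal cortex. The authors deposited coverage as a signal, the mean depth of reads over the bases of a gene, with no scaling by library. The FPKM deposited beside it is per kilobase of transcript and scaled by library, by StringTie. The TPM deposited in Low tables sums to 1000000. In Control and High tables, which also list assembled loci, the column deposited under that name sums to 1.70 to 1.98 times as much. The reason was not tested, and the column is treated as a score made by the authors' StringTie run. FPKM and TPM served as alternatives alone.

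Coverage was summed per gene identifier, divided by the sum over the 32883 reference genes and put on a scale of 1000000. The 15644 genes whose mean over the rats reached 1 were tested on log2(value + 1) with limma 3.58.1 (trend, robust) in R 4.3.3, with 3 groups in 1 fit, two-sided, and called where p after Benjamini-Hochberg adjustment was under 0.05. Adding 1 understates the change of low genes. Relations between members used 100000 permutations within groups. The Python (3.11.15) packages were pandas 2.3.3, numpy 2.4.6, scipy 1.17.1 and matplotlib 3.10.9. The tests were tested on simulated data. Named genes are the 10 members, 15 pathway genes fixed by name, every other pathway gene past the threshold and the 10 genes most like the members. Members and lists were chosen with earlier results of these data known. Of the listed names, Ero1l, Ero1lb and Vimp were not found and Trib3 and Atf3 were below the minimum. Alternatives were another pseudocount (0.1), no minimum or a minimum mean of 5, median-of-ratios or no scaling, mitochondrial genes left out, the FPKM and TPM columns, exact Wilcoxon rank-sum tests, a fit of the 2 groups compared alone, libraries 56 to 62 as a covariate, and each rat left out. Leaving out libraries 56 to 62 or 65 to 67 and the relation to immediate early genes were added after seeing the data. Those libraries were grouped from the data and are not a condition. Promoters are RefSeq's (GRCr8), kept apart from the positions of the tables.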

Additional observations from a re-analysis of the deposited data

Results flagged for a closer look

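In 11 of 93 sets of 8 rats, 1 rat stood apart from the remaining 7 (Dixon's test at 95%), where chance gives about 1 in 20, or 4.65. Among the members this concerned Sdf2l1 alone, at 7.45 in Control rat 54 against 10.1 to 12.1 in the other Control rats, and at 15.6 in Low rat 57 against 8.20 to 11.4. Control rat 49 was low for the sensor Atf6 (9.70 against 18.7 to 25.9), for Dnajc3 (10.8 against 18.4 to 23.9) and for Cebpg (22.1 against 26.5 to 30.4). Low rat 57 was low for Ern1 (3.70 against 4.78 to 5.59) and for Ppp1r15b (20.1 against 25.3 to 28.6). Low rat 61 was low for Asns (29.5 against 39.9 to 46.4). Kdelr2 was high in Low rat 59 (36.6 against 30.5 to 33.2) and in High rat 71 (33.3 against 25.4 to 28.0). High rat 71 was also high for Atf3 (4.20 against 0.080 to 1.66).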

How the results depend on the processing

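No paired analysis was possible because the groups share no replicate numbers. In High against Control 0 genes, members and pathway genes were called under every alternative. Calls of all genes were 956 in Low against Control and 1828 in Low against High. Leaving out 1 rat gave 675 to 1229 and 1272 to 2677, 0 to 2 and 2 to 2 members, 2 to 3 and 4 to 12 pathway genes, and 11 to 17 member pairs.

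Low against Control gave 556 genes with a minimum mean of 5 and 566 with only the groups compared. Without mitochondrial genes it gave 1733 genes, 2 members and 7 pathway genes. The FPKM column gave 12393, 10 and 68, and TPM 3952, 3 and 17, in the same order. A covariate for libraries 56 to 62 gave 361, 0 and 1, leaving these libraries out 327, 0 and 1. Median-of-ratios and no scaling gave 0 members each, and no scaling 1 pathway gene. The Wilcoxon test gave 372 genes and 1 pathway gene.

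Low against High gave 1192 genes with a minimum mean of 5. FPKM gave 12410, 10 members and 68 pathway genes, and TPM 3927 and 13 pathway genes. The covariate gave 354, 0 and 0, and leaving these libraries out 341, 0 and 1. Without libraries 65 to 67 there were 934 genes and 0 members. The Wilcoxon test gave 1147, 1 and 4. Median-of-ratios and no scaling gave 0 members, no scaling 1 pathway gene, and leaving out mitochondrial genes 11. Member pairs were 44 with no scaling, 5 without mitochondrial genes and 5 without libraries 56 to 62.

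The split of higher and lower calls in Low against Control was 192 and 764. It was 155 and 932 with median-of-ratios, 56 and 705 with no scaling, 838 and 895 without mitochondrial genes, 11948 and 445 with FPKM and 3178 and 774 with TPM. Against High it was 829 and 999, then 369 and 1289, 108 and 1262, and 1535 and 1161 for the first 3 of these. The FPKM column moved the median of all genes to 0.53 against Control and 0.52 against High. With it Hspa5 (0.49) and Sdf2l1 (0.35) against Control, and Creld2 (0.32) and Sdf2l1 (0.30) against High, turned positive, as did Ssr1 with FPKM (0.79 and 0.83) and TPM (0.40 and 0.44). Of 3216 values of single named genes under alternatives, 3064 kept their side of the threshold and had no reversed call (166 of them changed sign with the threshold passed in neither fit), 59 newly passed it, 85 lost it and 8 turned. The cause was not tested. Without read counts, the part of depth in these limits is unknown.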

Other observations

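Genes most like the mean of the members over the 24 rats after subtracting group means, given as a description, were Ugp2 (r = 0.90), Stip1 (0.88), Cacybp (0.87), Psmc6 (0.86), Odc1 (0.86), Rrm1 (0.85), Dnaja1 (0.85), Idh3a (0.84), Dstn (0.84) and Cct4 (0.84). Stip1 and Dnaja1 are cochaperones of the cytosol, Cct4 is a subunit of the cytosolic chaperonin and Psmc6 a subunit of the proteasome, and 0 of these 10 genes were in the ER stress lists. Of the 72 other ER stress genes 67 had a positive r with the members' mean, with a median of 0.38 beside 0.21 over all genes tested. The disulfide isomerases Pdia6 (r = 0.82, rank 18 of 15644) and Pdia3 (r = 0.81, rank 29) were the 2 among the first 100, while Kdelr2 had r = -0.30. Of the members, Calr was closest to their mean (r = 0.82), and Herpud1 (0.38) and Ddit3 (0.34) were the farthest. Each member is part of that mean, and all values share the scaling of the library.

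The ER stress response element was also found in the promoters of 4 of 61 other ER stress genes with a RefSeq promoter, Dnajc3, Canx, Ero1b and Derl3, and its second type in Hyou1 and Dnajb11. The C/EBP-ATF core was found in Ppp1r15b, Trib3, Chac1 and Nupr1.

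Of the marker lists of other cell types and tissues (oligodendrocytes, astrocytes, microglia, endothelium, choroid plexus, meninges, blood and striatum), 1 gene was called in any comparison, the endothelial marker Slco1a4, higher in Low than in High by 0.33 on the log2 scale (limma, adjusted p = 0.0235) and named after its value was seen. Whole lists differed in direction without calls: in Low against Control 0 of 8 striatal markers (median -0.57) and 0 of 5 meningeal markers (median -0.46) were positive, and in Low against High 7 of 7 oligodendrocyte markers (median 0.24) and 6 of 7 markers of cortical excitatory neurons (median 0.35) were. Over all genes tested, 66.5% were positive in Low against Control and 69.9% in Low against High. The part of these marker lists in the Herpud1 and Atf4 differences was not tested. The endothelial list had 4 of 6 genes found and 3 tested, with Cldn5 below the minimum, and had sums of 55.0 to 109.8 (Control), 79.2 to 99.4 (Low) and 61.2 to 83.9 (High). Summed oligodendrocyte markers were 3997 to 5775 (Control), 4306 to 8224 (Low) and 2559 to 6465 (High).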
